A study of Mus musculus with 9 samples.

Results

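The enzymes that build pyrimidine and purine nucleotides from small precursors were examined in mouse leukaemias driven by the MLL-AF9 fusion, a model of acute myeloid leukaemia. The set was given as 10 gene symbols, 4 of pyrimidine synthesis (Cad, Dhodh, Umps and Ctps) and 6 of purine synthesis (Ppat, Gart, Paics, Atic, Adsl and Impdh2), and every probe set annotated with exactly such a symbol was taken. All 10 genes were on the array, with 25 probe sets out of 37818 that name a single gene, and each gene stood among 20680 genes tested. The genes were chosen by pathway and by values already known from these arrays, namely the Ezh2-null minus WT difference in log2 intensity, of which that of Cad stood out. All differences between the genotypes are therefore descriptions of these arrays, and the p-values place a gene within the fit of all genes without being independent support.

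Expression was measured on 9 microarrays, 1 per sample, from 5 Ezh2-null and 4 wild-type (WT) leukaemias. Both groups were MLL-AF9 leukaemias on the C57B/6 background: a retrovirus carried the fusion gene MLL-AF9 together with GFP, recipients were sublethally irradiated and received pIpC to switch on Cre, and YFP marked cells in which Cre had acted. When secondary recipients fell ill, live marrow cells with both marks were sorted, so the WT cells had also been through Cre activation, and the groups differ in whether Ezh2, which encodes the Polycomb enzyme that methylates histones, was deleted. RNA was amplified before labelling. The labels call the samples biological replicates but give neither the age of the mice nor which secondary recipients shared a primary leukaemia, so p-values measure only the spread between these samples. Intensity is the brightness of a probe set, in the arbitrary units of the array, and is compared only within a probe set.

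Ezh2 itself read 639, 643, 658, 495 and 538 on Ezh2-null replicates 1 to 5, against 887, 1561, 1685 and 1899.7 on WT replicates 1 to 4, with no overlap between the genotypes and 40.7% of the WT level left. The 7 markers of leukaemic myeloid cells summed to an intensity of 25995 to 35227 in Ezh2-null and 26283 to 33682 in WT, and none of them passed. By mean log2 intensity 5 were higher and 2 lower in Ezh2-null, from 1.03 for Cd33 to -0.42 for Hoxa9. The sum thus hides markers that went opposite ways. The presence or absence of a cell type was not read from intensities, since levels of different probe sets cannot be compared. Ezh2 passed in 12 of 20 alternative analyses (adjusted p = 0.0373 on all 9 arrays by limma, 0.00632 to 0.149 in the alternatives). Among these was a threshold of 0.1 on the same fit, which Ezh2 had to pass. WT replicates 3 and 4 stood apart from the rest. Across genes, which are not independent replicates, they were the most alike of all WT pairs (Pearson r = 0.988). Ezh2-null pairs ran from 0.977 to 0.984 and WT pairs from 0.956 to 0.988. Results on the enzymes are therefore given with and without these 2 arrays.

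Pyrimidine synthesis begins with the trifunctional protein CAD, which joins glutamine, bicarbonate and aspartate into dihydroorotate. DHODH, in the inner mitochondrial membrane, oxidises this to orotate, UMPS attaches the ribose phosphate to give UMP, and CTP synthase turns UTP into CTP. Purine synthesis assembles the ring on ribose phosphate through PPAT, GART, PAICS, ADSL and ATIC up to IMP, from which IMPDH2 opens the branch to guanine nucleotides. Dividing cells, leukaemic blasts among them, draw on both pathways for RNA and DNA, several of the genes are known targets of the transcription factor Myc, and DHODH and IMPDH are targets of drugs studied in blood cancers or used in immunosuppression.

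Across the set, 9 of 10 genes had a lower mean in Ezh2-null than in WT leukaemia, and 1 of them, Cad, passed the test at an adjusted p under 0.05. The test was limma on log2 intensity with Benjamini-Hochberg adjustment over all 20680 genes, each gene represented by its brightest probe set. Of all genes, 0.498% passed (0.208% with Ezh2-null lower) and 46.7% had a negative change. The median log2 change, Ezh2-null minus WT, was -0.53 over the 10 enzymes, -0.52 without Cad, -0.74 over the 4 pyrimidine genes and -0.50 over the 6 purine genes, beside 0.02 over all genes. At an unadjusted p under 0.05 there were 5 of the 10, all lower, beside 17.2% of all genes in either direction and 8.97% lower. The genotypes did not overlap for 2 of the 10, Cad and Ctps, a state in which 2.87% of all genes were lower in Ezh2-null arrays. Less RNA of an enzyme per cell and fewer cells that express it cannot be told apart in such bulk samples.

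**Figure D1:**
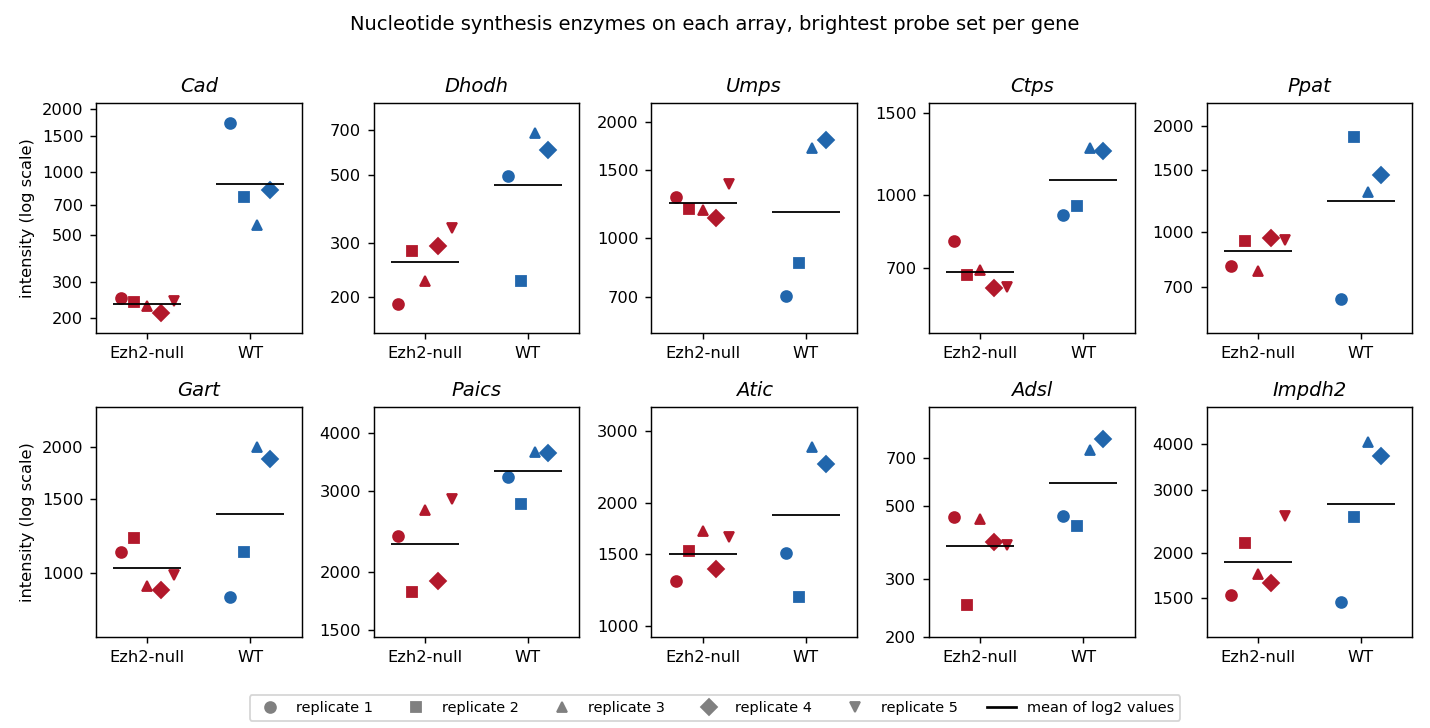
Intensity on each of the 9 arrays (log axis) for the brightest probe set of each of the 10 enzymes, Ezh2-null left and WT right, with the mean of the log2 values as a bar. Cad and Ctps show no overlap between the genotypes, and in 8 of the 10 panels WT replicates 3 and 4 are the highest points.

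Promoter sequence was examined because most of the enzymes had negative changes and several are known Myc targets. The 250 bases before the annotated start were read from RefSeq (GRCm38.p6) for the 9 enzymes other than Dhodh. The letters CACGTG, the canonical E-box that Myc binds with Max and the same on both strands, occurred before 3 of these 9 genes, Paics, Atic and Impdh2, or in 3 of 10 windows (30%, since Ctps has an additional start), beside 6.02% of 32851 windows of the same length. The windows of the 3 genes are shown with the motif in capitals, followed by those of Cad, the enzyme that passed, and of Ppat, whose annotated start lies 276 bases from that of Paics on the opposite strand, so that the 5' ends of these neighbours overlap. Each is written 5′ to 3′ along its gene. Paics is at chr5:76951052-76951301, plus strand, Atic at chr1:71556906-71557155, plus strand, Impdh2 at chr9:108560186-108560435, plus strand, Cad at chr5:31054530-31054779, plus strand, and Ppat at chr5:76951579-76951828, minus strand.
Paics: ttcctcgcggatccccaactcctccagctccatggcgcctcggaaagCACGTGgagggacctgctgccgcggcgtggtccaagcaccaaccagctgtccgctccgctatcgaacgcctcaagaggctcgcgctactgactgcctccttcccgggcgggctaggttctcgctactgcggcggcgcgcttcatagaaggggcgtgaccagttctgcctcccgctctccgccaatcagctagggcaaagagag
Atic: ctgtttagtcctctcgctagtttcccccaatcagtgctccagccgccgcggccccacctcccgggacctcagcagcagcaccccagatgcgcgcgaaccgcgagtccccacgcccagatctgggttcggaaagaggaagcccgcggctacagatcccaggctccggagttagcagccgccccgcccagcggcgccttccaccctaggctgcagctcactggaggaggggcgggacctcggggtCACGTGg
Impdh2: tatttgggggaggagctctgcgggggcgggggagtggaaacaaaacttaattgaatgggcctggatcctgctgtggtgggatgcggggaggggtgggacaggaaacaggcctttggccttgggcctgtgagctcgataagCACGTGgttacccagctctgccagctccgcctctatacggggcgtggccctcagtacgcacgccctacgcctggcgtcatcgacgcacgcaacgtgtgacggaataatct
Cad: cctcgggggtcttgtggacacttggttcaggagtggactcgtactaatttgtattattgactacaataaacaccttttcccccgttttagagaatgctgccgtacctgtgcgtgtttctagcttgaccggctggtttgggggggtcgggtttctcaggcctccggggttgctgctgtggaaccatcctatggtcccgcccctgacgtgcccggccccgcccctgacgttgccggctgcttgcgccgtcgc
Ppat: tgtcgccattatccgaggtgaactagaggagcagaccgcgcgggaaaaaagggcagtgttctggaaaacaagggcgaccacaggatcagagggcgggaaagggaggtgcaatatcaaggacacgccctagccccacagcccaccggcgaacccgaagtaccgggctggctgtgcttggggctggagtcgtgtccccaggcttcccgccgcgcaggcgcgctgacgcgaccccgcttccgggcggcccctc

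The E-box began 203 bases before the start of Paics, 7 before that of Atic and 110 before that of Impdh2. Log2 changes on the brightest probe sets were -0.52, -0.32 and -0.53 for these 3 genes. The 6 whose window does not hold these letters ran from -1.91 for Cad to 0.07 for Umps. Cad and Umps are the lowest and highest of the whole set, so any other member must lie between them and the spans cannot compare the groups. A match is a description of the letters only, and no binding was measured in these samples. Only these windows were read, so one without the letters says nothing about sequence after the start or further upstream. In G and C content the enzymes' windows had a median of 63.0%, beside 52.4% for all windows, from 49.6% for Umps to 68.8% for Atic. The motif consists mostly of G and C, so the 6.02% of all windows is not a like-for-like share. Enrichment of the motif was not tested.

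Cad fell furthest, to 26.6% of the WT level, or 3.76-fold lower. Its brightest probe set, 1452829_at, read 251, 241, 228, 212 and 242 on Ezh2-null replicates 1 to 5, against 1721, 765, 559.8 and 819.9 on WT replicates 1 to 4. The Ezh2-null arrays lay close together and every one was below every WT array, while the WT arrays spread from replicate 3 at the low end to replicate 1 at the high end. On the log2 scale the level was 7.87 ± 0.09 in Ezh2-null (SD, n = 5) and 9.78 ± 0.69 in WT (SD, n = 4), a change of -1.91 (SE 0.27, 95% interval -2.50 to -1.32). Without WT replicates 3 and 4 the change was -2.29 (SE 0.27), further from 0 than with them. Cad passed in 15 of 20 alternative analyses, among them the threshold of 0.1 on the same fit, which it had to pass. It did not pass without WT replicate 4 or without any of Ezh2-null replicates 1 to 4, with the change between -1.95 and -1.88 in those fits.

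Both dimmer probe sets of Cad were also lower on every Ezh2-null array, but with another order among the WT arrays. Probe set 1452830_s_at read 155, 139, 143, 102 and 101 on Ezh2-null replicates 1 to 5, against 235, 272, 563 and 519.8 on WT replicates 1 to 4, a log2 change of -1.55 (SE 0.28, adjusted p = 0.0527 over all probe sets). Probe set 1440857_at read 192, 201, 199, 205 and 195 on Ezh2-null replicates 1 to 5, against 275, 249, 517 and 384 on WT replicates 1 to 4, a change of -0.78 (SE 0.20, adjusted p = 0.116). On both of these WT replicates 3 and 4 were the highest arrays, whereas on the brightest probe set replicate 1 was highest and replicate 3 the lowest WT array. Without replicates 3 and 4 their changes were -1.0 and -0.40 (adjusted p = 0.140 and 0.236). The direction was thus shared by all 3 probe sets, and the size of the change was not.

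Each gene's log2 deviations from its own mean over the 9 arrays were compared with those of the brightest Cad probe set. The dimmer Cad probe sets were not used. The 5 genes closest by root mean square difference were Sdc4 (0.280), Slc43a1 (0.386), Mex3b (0.394), Scpep1 (0.403) and Lrba (0.405). Sdc4 encodes a cell surface proteoglycan, Slc43a1 an amino acid transporter, Mex3b an RNA-binding protein, Scpep1 a serine carboxypeptidase and Lrba a vesicle trafficking protein. None is an enzyme of nucleotide synthesis. Among the other 9 enzymes the closest to Cad was Ctps, at 0.811 and rank 608 of 20679 genes, and the furthest was Umps, at 1.23 and rank 18307. The deviations were not scaled, so a smaller change alone places an enzyme further from Cad.

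**Figure D2:**
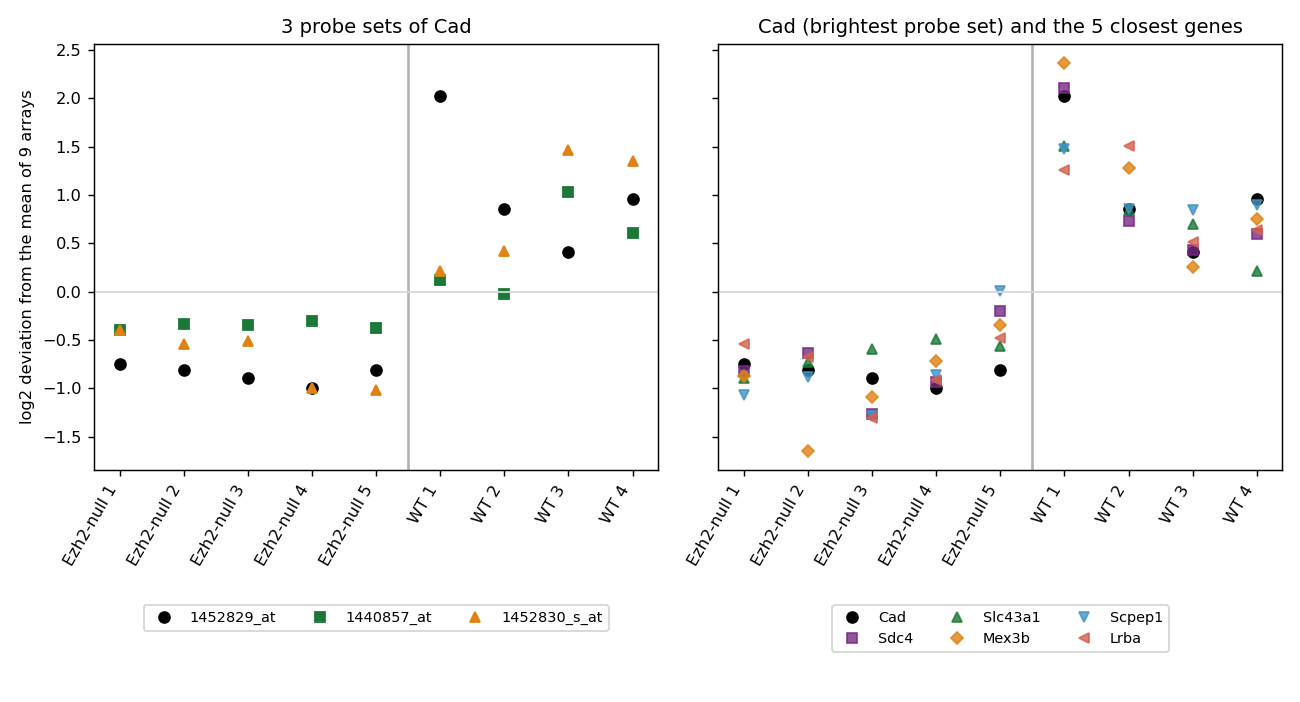
Log2 deviation from the mean of the 9 arrays, for the 3 probe sets of Cad (left) and for the brightest probe set of Cad with the 5 closest genes (right), Ezh2-null arrays left of the vertical line and WT arrays right of it. All 3 Cad probe sets are lower on all Ezh2-null arrays, and the brightest one peaks on WT replicate 1 while the other 2 peak on WT replicates 3 and 4.

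Ctps encodes CTP synthase and had the smallest adjusted p among the other 9 enzymes (0.0712) and was measured by 1 probe set. It read 797, 676, 693, 634 and 637 on Ezh2-null replicates 1 to 5, against 906, 950.1, 1259 and 1242 on WT replicates 1 to 4. The highest Ezh2-null array stayed below the lowest WT array, and WT replicates 3 and 4 were the highest. Levels were 9.42 ± 0.13 in Ezh2-null (SD, n = 5) and 10.07 ± 0.25 in WT (SD, n = 4), a change of -0.65 (SE 0.14, 95% interval -0.96 to -0.35), or 63.6% of the WT level. The change was -0.44 without WT replicates 3 and 4 (adjusted p = 0.253). Ctps passed with array weights and without WT replicate 1, and missed 0.05 in the remaining analyses at that threshold.

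Dhodh, which makes orotate, stood at -0.84 (SE 0.31, adjusted p = 0.209) with overlapping genotypes. Its brightest probe set read 189.9, 283, 226, 294 and 336 on Ezh2-null replicates 1 to 5, against 498, 225, 689 and 606 on WT replicates 1 to 4. WT replicate 2 lay inside the Ezh2-null range and the other WT arrays above it. On its other probe set, 1417581_at, the genotypes did not overlap, with 121, 159, 141, 163 and 141 on Ezh2-null replicates 1 to 5, against 175, 232, 328 and 428 on WT replicates 1 to 4 and a change of -0.93 (adjusted p = 0.118 over all probe sets). Without WT replicate 2 alone Dhodh passed, with a change of -1.19 (adjusted p = 0.0345), and without WT replicates 3 and 4 the change was -0.36 (adjusted p = 0.704).

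Umps, the enzyme that produces UMP, was the exception among the 10. Its brightest probe set read 1281, 1186, 1184, 1129 and 1379 on Ezh2-null replicates 1 to 5, against 703, 859.5, 1714 and 1800.4 on WT replicates 1 to 4. WT replicates 1 and 2 lay below all Ezh2-null arrays and WT replicates 3 and 4 above all of them, so the WT group bracketed the Ezh2-null group. The resulting change of 0.07 (SE 0.27, 95% interval -0.53 to 0.67, adjusted p = 0.920) has an interval that takes in values on both sides of 0. The other 3 probe sets of Umps stood at -0.62, -0.24 and 0.08, with adjusted p from 0.311 to 0.926. Without WT replicates 3 and 4 the change was 0.66 (SE 0.14, adjusted p = 0.118), the furthest positive value of the set.

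In purine synthesis all 6 genes had negative changes, and none passed. Ppat, which commits ribose phosphate to the pathway, stood at -0.48 (SE 0.26, adjusted p = 0.377). Its brightest probe set, 1452831_s_at, read 801, 943, 780.2, 964 and 954 on Ezh2-null replicates 1 to 5, against 648, 1859, 1305 and 1457 on WT replicates 1 to 4, with WT replicate 1 the lowest of all arrays and WT replicate 2 the highest. On probe set 1428543_at the genotypes did not overlap, at 875, 606, 875, 657 and 689 on Ezh2-null replicates 1 to 5, against 1027, 965, 1562 and 1586 on WT replicates 1 to 4, a change of -0.77 (adjusted p = 0.117). There WT replicate 1 was above all Ezh2-null arrays, so the probe sets of Ppat placed that array at opposite ends. The third probe set, 1441770_at, stayed near the bottom of the scale, between 8.83 and 13.4 on all arrays. Without WT replicate 1 alone Ppat passed with a change of -0.78 (adjusted p = 0.0458), while without WT replicate 2 alone the change was -0.28 (adjusted p = 0.549). Without WT replicates 3 and 4 it was -0.31 (adjusted p = 0.764).

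Gart encodes a trifunctional enzyme of the early steps of ring assembly. Its brightest probe set read 1122, 1209.9, 931, 909 and 988 on Ezh2-null replicates 1 to 5, against 877, 1122, 1994 and 1866 on WT replicates 1 to 4. WT replicates 1 and 2 fell within or below the Ezh2-null range and replicates 3 and 4 lay well above it. Its change was -0.43 (SE 0.24, adjusted p = 0.380), and 0.05 without WT replicates 3 and 4. Probe set 1416283_at gave 726, 561, 787, 851 and 944 on Ezh2-null replicates 1 to 5, against 1357, 1081, 1624 and 1513 on WT replicates 1 to 4, with no overlap and a change of -0.85 (adjusted p = 0.0764), and -0.67 without WT replicates 3 and 4 (adjusted p = 0.284). The remaining probe sets of Gart stood at -0.22 and -0.53.

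Paics, which carries out the carboxylation and aspartate addition in mid-pathway, read 2401, 1811, 2722, 1912 and 2876 on Ezh2-null replicates 1 to 5, against 3207, 2813, 3646 and 3628 on WT replicates 1 to 4. Ezh2-null replicate 5 exceeded the lowest WT array, and all others were below the WT range. The change was -0.52 (SE 0.16, 95% interval -0.89 to -0.15, adjusted p = 0.164), and -0.38 without WT replicates 3 and 4. The 3 probe sets of Paics had changes of -0.67 to -0.48, and on 1436298_x_at the genotypes did not overlap.

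Adsl, whose enzyme splits off fumarate during ring assembly and again on the way to AMP, was measured by 1 probe set. It read 462, 249.7, 455, 389 and 379.6 on Ezh2-null replicates 1 to 5, against 467, 434, 737 and 799 on WT replicates 1 to 4, with Ezh2-null replicate 2 far down and the other Ezh2-null arrays near WT replicates 1 and 2. Its change was -0.64 (SE 0.24, adjusted p = 0.213), and -0.25 without WT replicates 3 and 4. Atic closes the ring to IMP. Its brightest probe set had the smallest change of the purine genes, at -0.32 (SE 0.24, 95% interval -0.85 to 0.22, adjusted p = 0.535), and read 1286, 1526, 1707, 1376 and 1646 on Ezh2-null replicates 1 to 5, against 1512, 1175, 2742 and 2489.7 on WT replicates 1 to 4. WT replicate 2 was the lowest of the 9 arrays there, and without WT replicates 3 and 4 the sign turned, at 0.17 (adjusted p = 0.727). Its other probe set, 1428506_at, read 1170.5, 872, 1226, 959.5 and 892 on Ezh2-null replicates 1 to 5, against 1537, 1484, 1935 and 1716 on WT replicates 1 to 4. The genotypes did not overlap on it, the change was -0.71 (SE 0.14, adjusted p = 0.0736), and it kept -0.57 without WT replicates 3 and 4 (adjusted p = 0.264).

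Impdh2, the rate-limiting enzyme for guanine nucleotides, read 1529.7, 2133, 1754, 1659.8 and 2534 on Ezh2-null replicates 1 to 5, against 1464, 2521, 4063 and 3719 on WT replicates 1 to 4. WT replicate 1 was the lowest of all arrays and WT replicates 3 and 4 the highest. The change was -0.53 (SE 0.29, adjusted p = 0.370) and -0.59 on the other probe set (adjusted p = 0.282). Without WT replicates 3 and 4 they were -0.02 and -0.11. On its brightest probe set Impdh2 then lay nearest to 0 of the 10 enzymes.

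Taking each probe set on its own, 22 of 25 had a negative change, beside 47.3% of 45037 probe sets, and 1 passed when adjusted over all of them, 1452829_at of Cad, beside 0.402%. At an unadjusted p under 0.05 there were 15 of 25, beside 15.9%. The genotypes did not overlap, with Ezh2-null lower, on 9 of 25, beside 2.57% of all probe sets. These 9 covered 7 genes, Cad with all 3 of its probe sets and Dhodh, Ctps, Ppat, Gart, Paics and Atic with 1 each. Probe sets of the same gene share their RNA and are not replicates. In Dhodh, Ppat, Gart, Paics and Atic it was a dimmer probe set that separated the genotypes while the brightest did not.

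**Figure D3:**
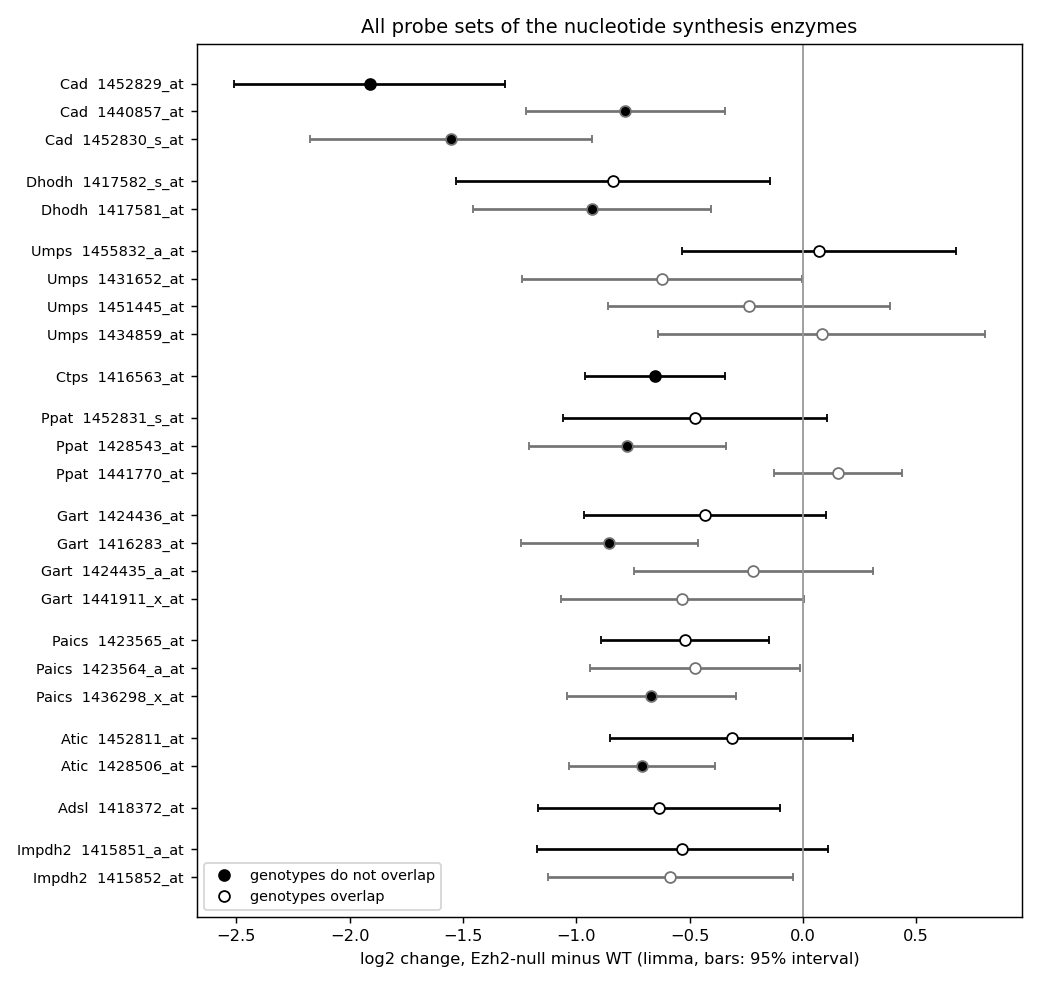
Log2 change, Ezh2-null minus WT, with its 95% interval for all 25 probe sets of the 10 enzymes, the brightest of each gene first. Filled points mark the 9 probe sets on which the genotypes did not overlap, and 22 of 25 points lie below 0.

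Outside Cad, most enzymes were highest on the 2 WT arrays that stood apart. WT replicates 3 and 4 were the highest of all 9 arrays for 8 of 10 enzymes, beside 13.7% of all genes, and for 21 of 25 probe sets, beside 12.2%. Ppat and Cad were the exceptions on the brightest probe sets. The median deviation of the 9 enzymes other than Cad from their own means was -0.27 to -0.01 on Ezh2-null arrays, against -0.13, -0.06, 0.68 and 0.59 on WT replicates 1 to 4. WT replicates 1 and 2 thus lay within the Ezh2-null range. Without WT replicates 3 and 4, the median change of the 10 enzymes was -0.28, 7 of 10 were below 0 beside 53.5% of all genes, and Cad alone passed, beside 0.295%. Gart, Atic and Umps were then above 0. For the 8 enzymes highest on these 2 arrays, leaving them out lowers the WT mean, so their changes had to move upwards. For Cad, whose lowest WT array is replicate 3, it raised the WT mean. These shifts therefore follow from which arrays were left out and are no separate result about the enzymes.

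**Figure D4:**
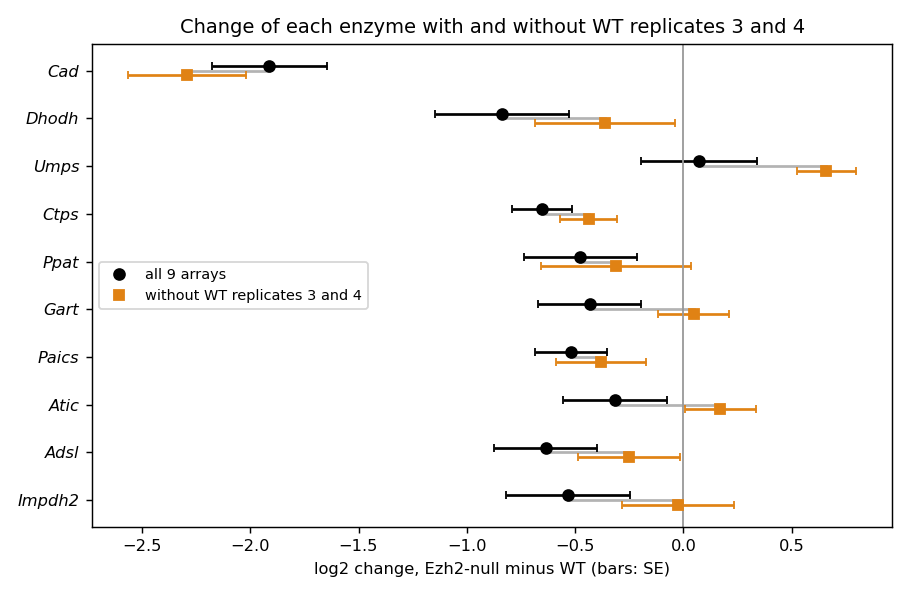
Log2 change, Ezh2-null minus WT, with its SE for each enzyme on all 9 arrays (circles) and without WT replicates 3 and 4 (squares). Cad lies further from 0 without these arrays, the other 9 genes shift to the right, and Umps, Gart and Atic are then above 0.

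Marker genes of other cells and of proliferation were also read on these arrays, and only Olfm4 passed over all genes. The counts by sign stand beside 46.7% of all genes with a negative change. All 11 measured neutrophil markers of 12 listed had a positive change (1 of them, the granule protein gene Olfm4, passed at 3.63, adjusted p = 0.00299), and their summed intensity was 81358 to 138885 in Ezh2-null and 29609 to 104653 in WT, where WT replicates 1 to 4 stood at 102927, 104653, 29609 and 48809. All 16 proliferation genes had negative changes and none passed, with a median of -0.28 and of -0.10 without WT replicates 3 and 4. Their sum was 48865 to 57199 in Ezh2-null and 52626 to 69106 in WT, highest on WT replicates 3 and 4. For mast cell and basophil genes 3 of 5 were positive and the sum was 811 to 9283 in Ezh2-null and 394 to 503 in WT, with no overlap. The spread of this sum came mostly from Prg2, at 256 to 8828 in Ezh2-null, highest on replicate 3, and 74 to 179 in WT. Cpa3 read 119 to 277 in Ezh2-null and 49 to 71 in WT, while Mcpt8 and Fcer1a had changes of -0.03 and -0.05. For macrophage genes 5 of 6 were positive and the sum was 4182 to 5665 in Ezh2-null and 3602 to 4972 in WT. Megakaryocyte genes, 4 of 4 positive, summed to 794 to 985 in Ezh2-null and 576 to 657 in WT, with no overlap. Of these genes only Gp9 separated the genotypes by itself, at 376 to 413 in Ezh2-null and 237 to 316 in WT. Erythroid genes, 2 of 5 positive, summed to 531 to 707 in Ezh2-null and 498 to 835 in WT. B cell genes, 4 of 4 positive, summed to 631 to 725 in Ezh2-null and 467 to 672 in WT, and T cell genes, 5 of 5 positive, to 651 to 905 in Ezh2-null and 560.4 to 813 in WT. No marker read 0, since the processing leaves every probe set a positive value. RNA quality was read from the Gapdh and Actb control probes, as the 3' set minus the 5' set on the log2 scale. For Gapdh it was 1.56 to 1.65 on Ezh2-null arrays and 1.80, 1.69, 1.47 and 1.55 on WT replicates 1 to 4. For Actb it was -0.09 to -0.03 on Ezh2-null arrays and -0.10, 0.02, -0.07 and -0.08 on WT replicates 1 to 4. The part of cell composition, proliferation or RNA quality in the enzyme values was not tested.

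Around the 10 enzymes, 10 further lists of nucleotide metabolism, its supply and cell division held 114 measured genes, of which none passed in limma over all genes, in either direction, with 34 at an unadjusted p under 0.05, 28 of them lower, beside 17.2% of all genes in either direction and 8.97% lower. Since no gene passed, the 2 with the smallest p are named from each list. Other enzymes of synthesis and its branches had a median of -0.09 over 10 genes, with 6 negative. Gmps, which makes GMP from the product of IMPDH, stood at -0.78 (adjusted p = 0.177) and Adss, which leads from IMP towards AMP, at -0.48 (adjusted p = 0.105). All 8 genes of deoxynucleotide and thymidylate synthesis were negative, with a median of -0.26, and Rrm1, the large subunit of ribonucleotide reductase, stood at -0.57 (adjusted p = 0.113) and Dctd, a dCMP deaminase, at -0.71 (adjusted p = 0.225). Salvage genes split evenly, 5 of 10 negative with a median of -0.05, with the thymidine kinase gene Tk1 at -0.66 (adjusted p = 0.238) and the uridine kinase gene Uck1 at -0.53 (adjusted p = 0.257).

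In the supply of folate-borne carbon, 11 of 18 genes were negative, with a median of -0.14. Shmt2, the mitochondrial serine hydroxymethyltransferase, read 686, 1024, 1066, 867 and 845 on Ezh2-null replicates 1 to 5, against 1756, 1346, 3162 and 2648 on WT replicates 1 to 4, with no overlap and a change of -1.25 (SE 0.24, adjusted p = 0.0586). Psat1, of serine synthesis, stood at -1.30 (adjusted p = 0.125). Without WT replicates 3 and 4 these changes were -0.79 and -0.76. For glutamine and aspartate, the nitrogen donors, 8 of 11 genes were negative with a median of -0.29, the asparagine synthetase gene Asns at -1.43 (adjusted p = 0.151) and the mitochondrial aspartate carrier gene Slc25a13 at -0.74 (adjusted p = 0.152). Asns read 282, 415, 318, 280.2 and 241 on Ezh2-null replicates 1 to 5, against 464, 381, 1853 and 1327 on WT replicates 1 to 4, with WT replicates 3 and 4 far above all other arrays, and its change was -0.48 without them. The pentose phosphate pathway, source of the ribose, had 5 of 7 genes positive and a median of 0.13, with G6pdx, its entry enzyme, at 0.59 (adjusted p = 0.138) and Pgls, the lactonase that follows, at -0.30 (adjusted p = 0.184).

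Nucleotide kinase genes were negative in 5 of 6, with a median of -0.24, Guk1, the guanylate kinase, at -0.53 (adjusted p = 0.155) and Nme2, a nucleoside diphosphate kinase, at -0.44 (adjusted p = 0.185). Breakdown enzymes were positive in 11 of 18, with a median of 0.16, Samhd1, which hydrolyses deoxynucleotides, at 0.45 (adjusted p = 0.203) and Xdh, which makes uric acid, at 0.64 (adjusted p = 0.242). Myc, named in addition, read 2063, 1727, 2334, 1709.7 and 2054 on Ezh2-null replicates 1 to 5, against 1199, 2329.5, 2741 and 2467 on WT replicates 1 to 4, with overlapping genotypes and a change of -0.09 (adjusted p = 0.882). Of 10 measured Myc family and partner genes 9 were positive, all but Myc itself, with a median of 0.16. Only Mycn had an unadjusted p under 0.05 in limma. The list pools Myc genes with repressing partners such as Mxi1, so this count does not measure Myc activity. Mycn stood at 1.71 (adjusted p = 0.147), with 22681, 19507, 3799, 13687 and 6049 on Ezh2-null replicates 1 to 5, against 4153, 4733, 2053 and 2787 on WT replicates 1 to 4, where 3 Ezh2-null arrays were far above all others, replicate 5 was also above the WT range and replicate 3 lay within it. Mxi1, which encodes a Max partner that represses, stood at 0.39 (adjusted p = 0.314). Among proliferation genes the cyclin genes Ccnb2 and Ccnb1 stood at -0.84 (adjusted p = 0.0501) and -0.77 (adjusted p = 0.0742).

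**Figure D5:**
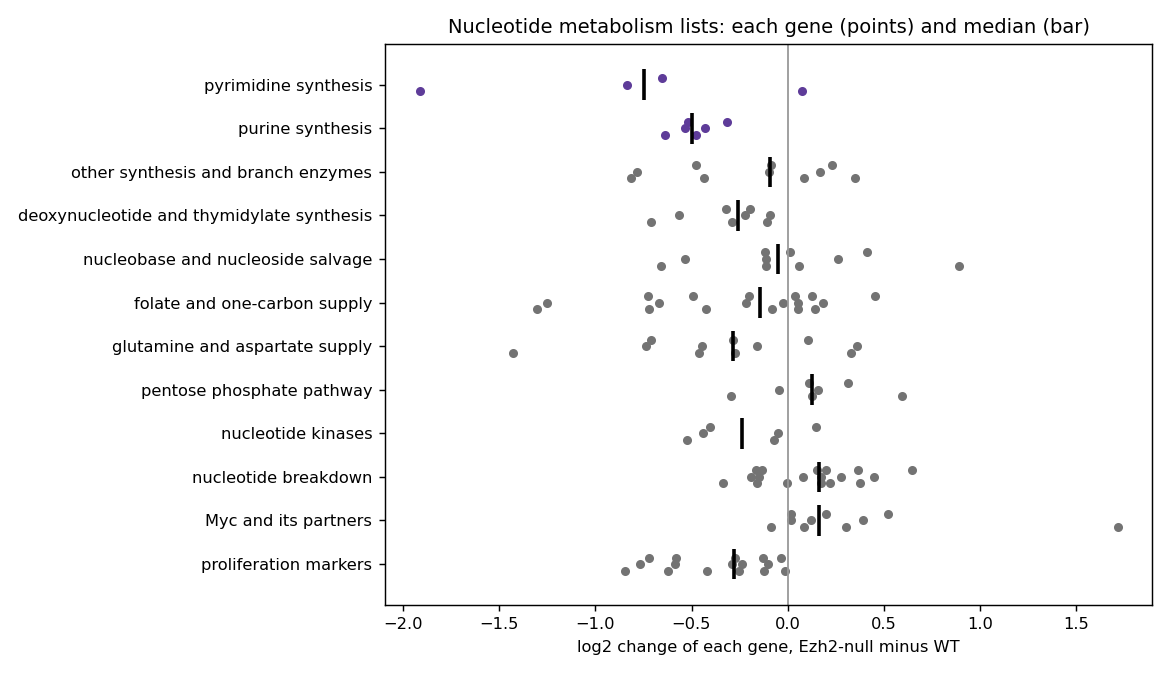
Log2 change of each measured gene (points) and the median of each list (bar), Ezh2-null minus WT, for the 10 enzymes (top, coloured) and 10 lists around them. The medians are -0.74 for pyrimidine and -0.50 for purine synthesis and lie between -0.29 and 0.16 for the other lists.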

How the data were processed

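RNA of 9 samples was hybridised to 1 array each. The deposited series values are linear intensities per probe set made by the authors with RMA, per the submitters' processing notes (version not given in the sources used here). A combined deposited table holds batch-adjusted intensities of the same samples, per the file headers made with ComBat, while 7 further columns hold other samples and stayed out. RMA equalises the arrays' distributions, so changes are relative to the other genes. Array number limits the precision.

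Intensities were taken to log2. Of 45101 probe sets, 64 controls were left out, 37818 named 1 gene, 1399 several and 5820 none. The brightest probe set stood for each of 20680 genes, and 9528 genes had several. limma 3.58.1 in R 4.3.3 (lmFit, eBayes) tested Ezh2-null minus WT, two-sided, with Benjamini-Hochberg adjustment over all genes and a threshold of 0.05, and a second fit took all 45037 non-control probe sets. The fit was tested on simulated data. Promoter windows were matched by symbol to RefSeq.

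Members and lists were chosen with earlier results of these data known. All members are named, with the 2 genes of smallest p from each other list, the 5 genes closest to Cad, and Ezh2. Myc and the single marker genes were named in addition. Genotypes share replicate numbers 1 to 4. Deviations of same-numbered arrays correlated at -0.14 to 0.13, and those of differently numbered arrays at -0.13 to 0.15. No pairing by number was thus visible, and the samples were treated as unpaired. These correlations cannot exclude that same-numbered samples were handled together. Alternatives covered the table, filter, probe set rule, scaling, weights, variance model, threshold, replicate number and left-out arrays. Those for the single probe sets, and those for the other lists except the fit without WT replicates 3 and 4, were chosen after seeing the data. The choice of WT replicates 3 and 4 itself also came from the values of these arrays, since no label sets them apart.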

Additional observations from a re-analysis of the deposited data

Results flagged for a closer look

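Of 50 groups of arrays, which were the 25 probe sets of the enzymes in each genotype, 1 held an array far from the others of its group. On Ppat probe set 1441770_at, Ezh2-null replicate 3 read 12.25, against 11.77 to 11.9 on the other Ezh2-null arrays. The gap to the nearest array was 0.728 of the range of the group. Chance gives such a gap in about 1 of 20 groups. This probe set is near the bottom of the intensity scale on all 9 arrays.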

How the results depend on the processing

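Over 20 alternatives the median change of the 10 enzymes stayed negative, at -0.74 to -0.43 when single arrays were left out, -0.72 with array weights, -0.61 with the replicate block and -0.28 without WT replicates 3 and 4. The block gives Ezh2-null replicate 5 a level of its own, so its changes equal those without that array. Of the 10 enzymes, 1 passed on all arrays, 1 with the replicate block, 2 with array weights, 2 at an adjusted p under 0.1 and 0 to 3 when single arrays were left out. It was 0 without WT replicate 4 or any of Ezh2-null replicates 1 to 4, 3 (Cad, Ctps and Ppat) when WT replicate 1 was left out and 2 (Cad and Dhodh) when WT replicate 2 was. The adjusted p of Cad ran from 0.00224 to 0.0713 and its change from -2.29 to -1.42. The sign turned for Umps at -0.18 with the mean of its probe sets, -0.22 with array weights and -0.17 to 0.28 over the fits that leave out single arrays (-0.17 for WT replicate 1, -0.076 for WT replicate 2), and for Gart (0.048) and Atic (0.17) without WT replicates 3 and 4. Of the 25 probe sets, 1 passed on all arrays, 3 in the batch-adjusted table, 2 without dim probe sets, 2 after quantile normalization, 7 with array weights, 2 with an intensity trend and robust variance, 5 at an adjusted p under 0.1 and 0 to 4 without single arrays. In the other lists, 0 genes passed on all arrays, 3 in the batch-adjusted table, 2 without dim genes, 2 with the mean of probe sets, 1 after quantile normalization, 17 with array weights, 2 with the replicate block, 3 at an adjusted p under 0.1 and 0 to 3 without single arrays. Over all genes 103 passed (43 lower), against 202 (108 lower) in the batch-adjusted table, 1007 (610 lower) with array weights, 488 (250 lower) at an adjusted p under 0.1, 61 without WT replicates 3 and 4 and 17 to 330 without single arrays. The cause of these differences was not tested. Levels near the bottom of the intensity scale, as on Ppat probe set 1441770_at, limit what can be seen there.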
